A study of Rattus norvegicus with 16 samples.

Results

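The secreted Wnt antagonists examined here are 10 genes, Dkk1, Dkk2, Dkk3, Sost, Sostdc1, Sfrp1, Sfrp2, Sfrp4, Frzb and Wif1, taken by name from 17245 genes with an array row of their own. All 10 were measured, each by a single row of the array, so no choice between rows was needed. They were followed in cells that adhered to titanium implants in the tibiae of male Sprague Dawley rats of 326 to 350 g. AT-I implants had a nanoscale texture, which the microrough AT-II implants lacked.

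Each of 8 rats received a pair of AT-I implants in 1 tibia and a pair of AT-II implants in the other, and 4 rats were sampled per day. The 4 groups were AT-I day 4, AT-I day 2, AT-II day 4 and AT-II day 2, with 4 Affymetrix Rat Gene 1.1 ST arrays each. RNA from the implants of a tibia was pooled to make a sample, and every rat had ketamine and xylazine anaesthesia, local lidocaine with epinephrine, and ketoprofen, an anti-inflammatory analgesic, at 5 mg per kg daily for 48 hours. No age, no unoperated bone and no time before day 2 was included among the groups used here. The labels do not say which replicate numbers share a rat, and p-values measure the spread between these samples.

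Wnt proteins are secreted ligands that bind Frizzled receptors together with the co-receptors Lrp5 or Lrp6, which stabilises beta-catenin and drives transcription through TCF/LEF factors. In bone this pathway favours osteoblast formation, and secreted antagonists restrain it in distinct ways. Dkk1, Dkk2 and sclerostin occupy the co-receptors, whereas the Sfrp proteins, Frzb and Wif1 bind the Wnt ligands themselves.

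The RefSeq promoter table (GRCr8) held 5 of the 10 members. Promoters are shown for the 3 of these that rose at day 4 on at least 1 surface, because Dkk1 is a known target of TCF/LEF factors. Each stretch holds 250 bases before and 50 bases after the start of the gene, on the strand of the gene. Capitals mark matches, on either strand, to a TCF/LEF word, which is CTTTGAA or else its variant CTTTGAT, or the third variant CTTTGTA, or the last variant searched, CTTTGTT. The Dkk1 stretch is chr1:237798601-237798900 on the minus strand, the Wif1 stretch chr7:58433329-58433628 on the plus strand, and the Sfrp2 stretch chr2:171387286-171387585 on the plus strand.
Dkk1: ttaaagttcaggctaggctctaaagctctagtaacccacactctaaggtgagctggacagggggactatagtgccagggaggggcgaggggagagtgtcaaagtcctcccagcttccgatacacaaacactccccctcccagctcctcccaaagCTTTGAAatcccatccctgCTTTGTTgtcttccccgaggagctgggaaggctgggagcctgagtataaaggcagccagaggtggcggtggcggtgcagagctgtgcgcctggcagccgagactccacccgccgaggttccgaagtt
Wif1: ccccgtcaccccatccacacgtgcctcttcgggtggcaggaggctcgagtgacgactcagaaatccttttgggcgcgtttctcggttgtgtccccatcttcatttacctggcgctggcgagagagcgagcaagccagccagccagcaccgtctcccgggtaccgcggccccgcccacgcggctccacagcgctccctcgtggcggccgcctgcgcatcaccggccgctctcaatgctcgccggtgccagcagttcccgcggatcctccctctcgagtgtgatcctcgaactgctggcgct
Sfrp2: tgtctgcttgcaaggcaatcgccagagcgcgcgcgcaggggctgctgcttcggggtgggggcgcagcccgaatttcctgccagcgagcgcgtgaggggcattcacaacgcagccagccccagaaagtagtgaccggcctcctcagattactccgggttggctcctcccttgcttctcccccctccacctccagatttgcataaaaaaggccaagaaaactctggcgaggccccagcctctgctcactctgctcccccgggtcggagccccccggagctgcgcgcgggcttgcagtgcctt
The Dkk1 window held 2 matches, which began 96 and 77 bases before the start, and neither overlapped the other. Those of Wif1, Sfrp2, Sost and Frzb, the other members in the table, held 0. At least 1 match was present in 17.1% of all 33469 windows of this length, and the RUNX word TGTGGT, sought on both strands, was in 17.3% of all windows and in 0 of these 5. A match describes the letters only.

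The arrays AT-II day 2 replicates 2 and 3 were nearer to each other than any other of 120 pairs. In bright rows that varied most, the SD of their difference was 0.109, against at least 0.294 in other pairs, so they were averaged and counted as 1 sample. AT-II day 2 then had n = 3, and its values are given below as replicate 1, the average and replicate 4. Values are on the log2 scale, where 1 unit is taken as a doubling of signal. Row brightness depends on the probes, so levels were compared between groups and not between genes. As a gauge of signal near background, the 95th percentile of 59 olfactory receptor genes lay between 5.81 and 7.50 in the 15 samples. Dkk2 and Sostdc1 were below it in every sample, Sost was above it in 4, Frzb in 5, Dkk1 in 8, the 8 of day 4, Wif1 in 9, Dkk3 in 10, Sfrp4 in 12, and Sfrp1 and Sfrp2 in 13 each. At AT-I day 2, Dkk1, Dkk3 and Wif1 were below it in all 4 samples, and Sfrp1, Sfrp2 and Sfrp4 in 2 of 4. The gauge is strict, being the upper end of other probes. Of the osteoblast markers, Col1a1, Col1a2 and Alpl were above it in all 15. Runx2 and Ibsp were above it in 14 each, Bglap and Ifitm5 in 13 each, Sp7 in 11 and Dlx5 in 9. Among 6 osteocyte markers, Mepe and Fgf23 were below it in all 15, while Pdpn was above it in all 15, Dmp1 in 11 and Phex in 9.

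**Figure D1:**
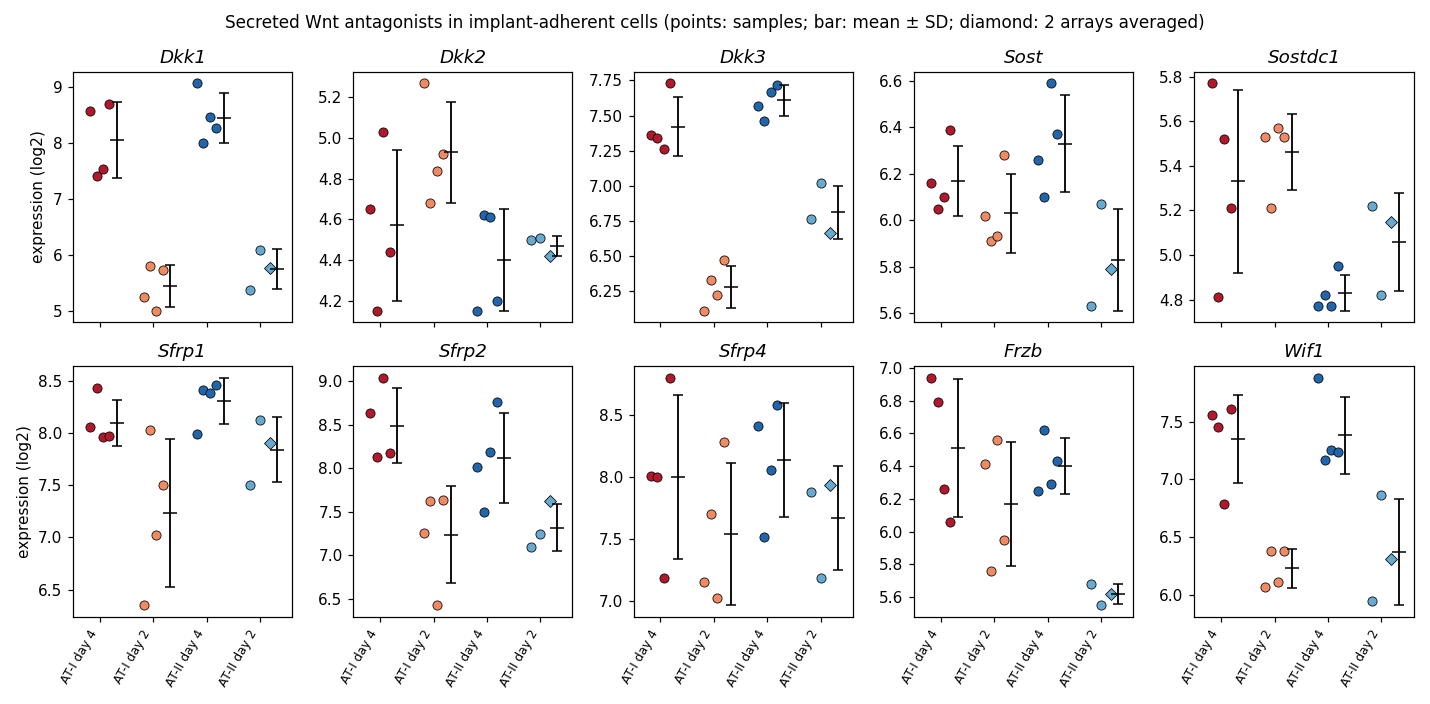
Expression (log2, vertical axis) of the 10 members in the 15 samples by group, with the group mean and SD as a bar and the average of the 2 closest arrays as a diamond. Dkk1 lies at 7.41 or above in all 8 day 4 samples and at 6.10 or below in all 7 day 2 samples.

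The comparison of day 4 with day 2 asked how the adherent cells changed as healing went on, on each surface separately. Dkk1, Dkk3 and Wif1 rose on both surfaces, and the signal of the Dkk1 row differed most, by 2.60 on AT-I and 2.70 on AT-II. Sfrp2 and Sfrp1 rose on AT-I. On AT-I 5 of the 10 members rose and 0 fell in limma's test (adjusted p under 0.05 over all genes), where 8.84% of all genes were called higher and 2.66% lower. On AT-II 3 rose and 0 fell, where 3.13% of all genes were called higher and 0.203% lower. The median change of the members was 0.67 on AT-I and 0.64 on AT-II, beside -0.05 for all genes tested on either surface. In bulk RNA, more cells of a type and more RNA per cell cannot be told apart, here or in any change below.

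Dkk1, which binds Lrp5 and Lrp6 and removes them from signalling together with Kremen proteins, had 8.57, 7.41, 7.54 and 8.70 in AT-I day 4 samples, against 5.26, 5.80, 5.01 and 5.74 in AT-I day 2 samples. On AT-II it had 9.07, 8.01, 8.46 and 8.27 at day 4, against 5.38, 5.77 and 6.10 at day 2. The days did not overlap on either surface, and at day 4 AT-I replicates 2 and 3 were the lowest. The signal rose by 2.60 ± 0.31 on AT-I (log2 change, SE, n = 4 and 4, limma adjusted p = 7.75e-05) and by 2.70 ± 0.33 on AT-II (n = 4 and 3, limma adjusted p = 0.000233). All 7 day 2 samples lay below the olfactory gauge, so the size of the rise is uncertain. With those samples set at the gauge, Dkk1 was 1.79-fold higher on AT-I and 4.54-fold higher on AT-II. The day 2 gauge averaged 7.21 on AT-I and 6.27 on AT-II, so these folds are not compared between surfaces. By p Dkk1 stood at place 73 among all genes on AT-I and at place 40 on AT-II. Its groups ran in the order AT-II day 4, AT-I day 4, AT-II day 2 and AT-I day 2, and neighbours of the same day overlapped.

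Dkk3, a divergent Dkk protein whose action on Wnt signalling is less clear, had 7.36, 7.34, 7.26 and 7.73 in AT-I day 4 samples, against 6.11, 6.33, 6.22 and 6.47 in AT-I day 2 samples. The samples of either day lay close together, with an SD of 0.21 at day 4 and 0.15 at day 2. On AT-II it had 7.57, 7.46, 7.67 and 7.72 at day 4, against 6.76, 6.66 and 7.02 at day 2. The days did not overlap on AT-II either. The signal rose by 1.14 ± 0.13 on AT-I (limma adjusted p = 6.94e-05) and 1.73 fold on AT-II (0.79 ± 0.14, limma adjusted p = 0.00422). At day 4, 3 of 4 AT-I samples lay above the olfactory gauge. With the AT-I day 2 samples set at that gauge, Dkk3 was 1.16-fold higher on AT-I. Its groups ran in the same order as those of Dkk1, and only AT-II day 4 and AT-I day 4 overlapped among neighbours.

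Dkk2, which can block or promote signalling through Lrp6 depending on the cell, did not pass on either surface. It ranged from 4.15 to 5.03 in AT-I day 4 samples, against 4.68 to 5.27 in AT-I day 2 samples, and the change was -0.36 ± 0.18 (limma adjusted p = 0.208). On AT-II the change was -0.08 ± 0.19 (limma adjusted p = 0.931). Since every value lay below the olfactory gauge, these rows bear little on the level of Dkk2.

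Sost encodes sclerostin, an inhibitor made mainly by osteocytes that binds Lrp5 and Lrp6 and is presented by Lrp4. It had 6.16, 6.05, 6.10 and 6.39 in AT-I day 4 samples, against 6.02, 5.91, 5.93 and 6.28 in AT-I day 2 samples. These overlapped, and the change was 0.14 ± 0.14 (limma adjusted p = 0.521). On AT-II it had 6.26, 6.10, 6.59 and 6.37 at day 4, against 5.63, 5.79 and 6.07 at day 2. Here the days did not overlap, yet the change of 0.50 ± 0.15 did not pass (limma adjusted p = 0.0928); it did without AT-II day 2 replicate 4 (0.62, limma adjusted p = 0.04998) and with all 16 arrays counted (0.51, limma adjusted p = 0.0338), where 4.92% of all genes passed in either direction. In the same samples Dmp1, a matrix protein of osteocytes and late osteoblasts, rose by 3.46 ± 0.36 on AT-I and 3.53 ± 0.39 on AT-II, and Phex, an endopeptidase of phosphate control, by 4.24 ± 0.39 and 3.85 ± 0.42. Of the 5 other osteocyte markers these 2 rose and 0 fell on each surface. At AT-I day 2 Dmp1 averaged 6.66 and Phex 5.10, below the gauge average of 7.21. At AT-II day 2 Phex averaged 5.50, below the gauge average of 6.27. The size of those rises is thus uncertain. For Sost the 95% interval on AT-I was -0.15 to 0.43. The Sost row lay below the olfactory gauge in every day 2 sample, and above it in 2 of 4 day 4 samples on each surface. Near background it bears little on whether Sost moved with these markers. The mean level of the 6 osteocyte markers, Sost included, was 7.43 to 7.95 in AT-I day 4 samples and 6.27 to 6.48 in AT-I day 2 samples, and 7.44 to 8.02 in AT-II day 4 samples and 6.09 to 6.55 in AT-II day 2 samples.

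Sostdc1, a relative of sclerostin that binds bone morphogenetic proteins as well as the Wnt co-receptors, changed by -0.13 ± 0.17 on AT-I (limma adjusted p = 0.651) and by -0.24 ± 0.19 on AT-II (limma adjusted p = 0.676). Its samples ran from 4.81 to 5.77 in AT-I day 4, against 5.21 to 5.57 in AT-I day 2. The days overlapped on both surfaces.

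Wif1 binds Wnt ligands through a domain of its own and is expressed by osteoblasts. It had 7.56, 7.45, 6.79 and 7.61 in AT-I day 4 samples, against 6.07, 6.38, 6.11 and 6.38 in AT-I day 2 samples. On AT-II it had 7.88, 7.17, 7.25 and 7.24 at day 4, against 5.95, 6.31 and 6.86 at day 2. The days did not overlap on either surface, with AT-I day 4 replicate 3 and AT-II day 2 replicate 4 the nearest to the other day. The signal rose by 1.12 ± 0.22 on AT-I (limma adjusted p = 0.00355) and by 1.01 ± 0.24 on AT-II (limma adjusted p = 0.0261). At day 4, 3 of 4 AT-I samples lay above the olfactory gauge. With the AT-I day 2 samples set at that gauge, Wif1 was 1.11-fold higher on AT-I, and 1 of the 3 AT-II day 2 samples also lay below it. The call on AT-II ended without AT-II day 2 replicate 1 (0.80, limma adjusted p = 0.198), AT-II day 4 replicate 1 (0.85, limma adjusted p = 0.093), AT-II day 4 replicate 3 (1.05, limma adjusted p = 0.0522) or the averaged sample (0.98, limma adjusted p = 0.117).

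The Sfrp proteins carry a cysteine-rich domain like that of the Frizzled receptors and hold Wnt ligands away from them. Sfrp2 had 8.63, 8.13, 9.04 and 8.18 in AT-I day 4 samples, against 7.26, 7.62, 6.43 and 7.64 in AT-I day 2 samples. These did not overlap, and the rise was 2.39 fold (1.26 ± 0.29, limma adjusted p = 0.0112). On AT-I, replicate 3 was the lowest of day 2. On AT-II Sfrp2 had 8.01, 7.50, 8.19 and 8.76 at day 4, against 7.10, 7.62 and 7.25 at day 2. The days overlapped there, and the change of 0.79 ± 0.32 did not pass (limma adjusted p = 0.27).

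Sfrp1, whose loss raises bone mass in mice, had 8.06, 8.43, 7.96 and 7.97 in AT-I day 4 samples, against 6.35, 8.03, 7.02 and 7.50 in AT-I day 2 samples. The day 2 samples spread widely (SD 0.71) and replicate 2 reached into the range of day 4. The rise of 1.83 fold (0.88 ± 0.27) just passed (limma adjusted p = 0.0466), and was 0.58 without AT-I day 2 replicate 1 (limma adjusted p = 0.125). Of 15 fits that left out 1 sample each, 3 kept the call, those without AT-I day 2 replicate 2, AT-I day 4 replicate 3 or AT-II day 2 replicate 1. It also ended with each array centred on its median (0.72, limma adjusted p = 0.0703) or with a covariate for array spread (0.54, limma adjusted p = 0.252). On AT-II the change was 0.47 ± 0.29 (limma adjusted p = 0.564).

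Sfrp4, which acts in cortical bone, did not pass on either surface, at 0.46 ± 0.34 on AT-I (limma adjusted p = 0.38) and 0.47 ± 0.36 on AT-II (limma adjusted p = 0.666). It ran from 7.19 to 8.80 in AT-I day 4 samples, against 7.03 to 8.28 in AT-I day 2 samples. Of all members it had the widest standard error in both comparisons. Frzb, first isolated from cartilage and also called Sfrp3, had 6.25, 6.62, 6.29 and 6.43 in AT-II day 4 samples, against 5.68, 5.62 and 5.55 in AT-II day 2 samples. These did not overlap, but the change of 0.78 ± 0.22 did not pass (limma adjusted p = 0.0683), although it did with all 16 arrays counted (limma adjusted p = 0.02945) and with those groups fitted alone (limma adjusted p = 0.0117), and array weights, under which 7.12% of all genes passed, also gave 5 members. Frzb passed on AT-II in 6 of 28 alternative settings, and in 0 of the 15 that left out 1 sample. All 3 AT-II day 2 samples lay below the olfactory gauge, and with them set at it Frzb was 1.09-fold higher. On AT-I Frzb changed by 0.34 ± 0.20 with overlapping days (limma adjusted p = 0.281).

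Without regard to the test, 4 members had all AT-I day 4 samples above all AT-I day 2 samples, where 11.3% of all genes did, and 5 had all AT-II day 4 samples above all AT-II day 2 samples, where 8.74% of all genes did. Sost and Frzb were in the second count and not the first, and Sfrp2 was in the first and not the second. Whether a member changed unequally on the surfaces was tested directly, as the AT-I change minus the AT-II change. In limma 0 of the 10 members and 0 of all genes passed (707 genes, 4.1%, at an unadjusted p under 0.05, and 0 members). The interval was -1.06 to 0.85 for Dkk1, -0.06 to 0.76 for Dkk3, -0.80 to 0.07 for Sost, -1.08 to 0.19 for Frzb and -0.45 to 1.39 for Sfrp2. Each rat carried both surfaces, so the time courses are not independent of each other.

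**Figure D2:**
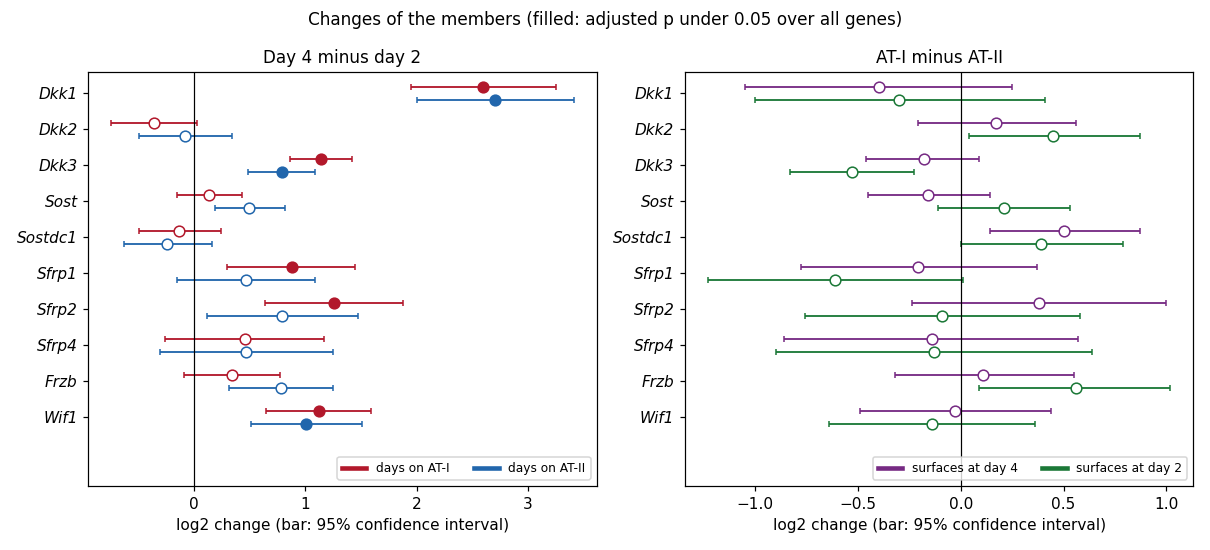
Log2 changes (horizontal axis) of the 10 members with 95% confidence intervals, from day 4 minus day 2 on each surface (left) and AT-I minus AT-II on each day (right). Filled points, 5 on AT-I and 3 on AT-II, have an adjusted p under 0.05 over all genes, and the right panel has 0.

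Setting AT-I against AT-II asked whether nanoscale features went with other levels of the antagonists. At day 2, 0 members and 0 of all genes passed in limma with 15 samples (4701 genes, 27.3%, and 3 members had an unadjusted p under 0.05). The lowest p of a member was that of Dkk3, with 6.11, 6.33, 6.22 and 6.47 in AT-I day 2 samples, against 6.76, 6.66 and 7.02 in AT-II day 2 samples. The groups did not overlap, and the difference was -0.53 ± 0.14 (limma adjusted p = 0.128). With all 16 arrays counted it was -0.49 ± 0.13 and passed (limma adjusted p = 0.04), as did 12.7% of all genes, and it was the 1 member that did. Array weights gave 1 member too, where 21.5% of all genes passed.

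Frzb had 6.41, 5.76, 6.56 and 5.95 in AT-I day 2 samples, against 5.68, 5.62 and 5.55 in AT-II day 2 samples, a difference of 0.56 ± 0.22 (limma adjusted p = 0.143). Dkk2 differed by 0.45 ± 0.19 (limma adjusted p = 0.163). These 2 members were higher in every AT-I sample, where 8.83% of all genes were, and Dkk3 was lower in every one, where 11.3% of all genes were. For Frzb this rests on the averaging, since the single array AT-II replicate 2 had 5.78, above AT-I replicate 2 at 5.76. Frzb and Dkk2 lay below the olfactory gauge in every day 2 sample. Sfrp1 differed by -0.61 ± 0.29 (limma adjusted p = 0.186) and Sostdc1 by 0.39 ± 0.19 (limma adjusted p = 0.187), both with overlap. For Dkk1 the difference was -0.30 ± 0.33 (limma adjusted p = 0.532).

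Arrays of the surfaces differed in spread at day 2. The interquartile range over genes was 2.48 to 2.98 in AT-I day 2 samples and 3.05 to 3.41 in AT-II day 2 samples, and the median of the olfactory receptor genes was 4.93 to 6.11 and 4.47 to 5.13 in those groups. With array spread in the model, 0 members passed, each with a limma adjusted p of 0.996 or above. The differences at day 2 were then -0.07 for Dkk2, 0.04 for Sostdc1, -0.11 for Sfrp1, 0.43 for Frzb and -0.41 for Dkk3. They were 0.21 for Sost, -0.02 for Sfrp2 and, with the direction turned, 0.63 ± 0.39 for Sfrp4, 0.30 ± 0.27 for Wif1 and 0.04 for Dkk1. The direction of Dkk2 had turned as well. Without that covariate the difference was -0.13 ± 0.36 for Sfrp4 and -0.14 ± 0.24 for Wif1. The covariate also moved changes from day 2 to day 4 on AT-I. There it gave -0.01 for Dkk2, 0.11 for Sostdc1 and -0.04 for Sfrp4, against -0.36, -0.13 and 0.46 without it. Dkk1, Dkk3, Sfrp2 and Wif1 still passed on AT-I.

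At day 4, 0 members and 0 of all genes passed in limma (687 genes, 3.98%, and 1 member had an unadjusted p under 0.05). That member was Sostdc1, with 5.77, 4.81, 5.52 and 5.21 in AT-I day 4 samples, against 4.77, 4.82, 4.77 and 4.95 in AT-II day 4 samples. The groups overlapped through AT-I replicate 2, and the difference was 0.50 ± 0.17 (limma adjusted p = 0.913). Every Sostdc1 value lay below the olfactory gauge, and with array spread in the model the difference was 0.36 ± 0.15. Dkk1 averaged 8.05 ± 0.68 in AT-I day 4 samples and 8.45 ± 0.45 in AT-II day 4 samples (SD, n = 4 each), with an interval of -1.05 to 0.25 for the difference. Wif1 averaged 7.35 ± 0.38 on AT-I and 7.38 ± 0.33 on AT-II at day 4, with an interval of -0.49 to 0.44. For Sost the interval was -0.45 to 0.14.

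Other genes of the Wnt pathway were counted in 7 lists, some of which share genes. The 6 other measured secreted inhibitors (Dkkl1, Sfrp5, Notum, Draxin, Cer1 and Igfbp4) had 0 genes past the threshold on either surface, with medians of -0.14 on AT-I and 0.16 on AT-II. Notum, an enzyme that inactivates Wnt ligands, changed by -0.32 ± 0.14 on AT-I (limma adjusted p = 0.168), and Sfrp5 by 0.47 ± 0.25 on AT-II (limma adjusted p = 0.458). Of 18 ligands, 1 rose and 1 fell on AT-I, and 1 rose on AT-II. Wnt7b fell by 0.53 ± 0.11 on AT-I (limma adjusted p = 0.00457), where Wnt5b rose by 0.45 ± 0.12 (limma adjusted p = 0.029). Wnt10b rose by 0.67 ± 0.13 on AT-II (limma adjusted p = 0.00821). These rows were dim. On AT-I, Wnt7b averaged 5.75 at day 2 and 5.22 at day 4, and Wnt5b 5.63 and 6.07. On AT-II, Wnt10b averaged 5.11 and 5.77. The olfactory gauge was 5.81 or above in every sample, so these changes lie near background and bear little on ligand levels.

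Of the 5 receptors that bind Dkk1 or sclerostin, 4 rose and 0 fell on AT-I, and 2 rose and 0 fell on AT-II. Lrp4, which presents sclerostin, averaged 8.26 at day 4 and 6.98 at day 2 on AT-I and rose by 1.28 ± 0.19 there (limma adjusted p = 0.000404) and by 1.00 ± 0.20 on AT-II (limma adjusted p = 0.01). Lrp5 rose by 1.17 ± 0.15 and 0.86 ± 0.16. At AT-I day 2 Lrp4 averaged 6.98 and Lrp5 6.90, below the gauge average of 7.21 there, so the size of their rise on AT-I is uncertain. Lrp6 rose by 0.69 ± 0.12 on AT-I and changed by 0.46 ± 0.13 on AT-II (limma adjusted p = 0.0634). Kremen1, the partner of Dkk1, rose by 0.80 ± 0.21 on AT-I (limma adjusted p = 0.0212) and changed by 0.43 ± 0.23 on AT-II (limma adjusted p = 0.46), while Kremen2 changed by -0.16 ± 0.15 on AT-I and -0.02 ± 0.16 on AT-II, where neither passed. Among 13 Wnt receptors and co-receptors, Lrp5 and Lrp6 included, 8 rose and 0 fell on AT-I, and 3 rose and 0 fell on AT-II. Ryk, a kinase-like Wnt receptor, rose by 1.21 ± 0.15 on AT-I and 0.70 ± 0.17 on AT-II.

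R-spondins act through Lgr receptors against the ligase Rnf43, which removes Wnt receptors from the cell surface. Of 8 such genes, 2 rose and 0 fell on AT-I, and 1 rose on AT-II. Lgr4, an R-spondin receptor, rose by 2.22 ± 0.22 on AT-I and 1.79 ± 0.24 on AT-II, and Rspo3 rose by 1.07 ± 0.23 on AT-I. In the beta-catenin core, 6 of 14 rose on AT-I and 2 on AT-II, with 0 lower. Tcf7, a TCF/LEF factor, rose by 1.26 ± 0.18 on AT-I and 1.09 ± 0.20 on AT-II. At AT-I day 2 Lgr4 averaged 6.53, Rspo3 6.50 and Tcf7 6.62, below the gauge average of 7.21. The size of their rise on AT-I is likewise uncertain.

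Of 12 Wnt target genes other than Dkk1, 4 rose on AT-I and 3 on AT-II, and 0 fell on either. Ccn4 rose by 1.83 ± 0.26 on AT-I and 1.70 ± 0.28 on AT-II, and Tnfrsf11b, which encodes the osteoclast inhibitor osteoprotegerin, rose on AT-I (limma adjusted p = 0.000876) and by 1.22 ± 0.26 on AT-II. At AT-I day 2 Tnfrsf11b averaged 6.97, below the gauge average of 7.21. Axin2, a feedback inhibitor much used as a readout of beta-catenin signalling, changed by 0.45 ± 0.19 on AT-I (limma adjusted p = 0.135) and 0.16 ± 0.20 on AT-II (limma adjusted p = 0.826). Lef1 changed by -0.22 ± 0.22 and 0.01 ± 0.24 in the same comparisons, neither of which passed. Axin2, Lef1, Kremen1 and Kremen2 were chosen for mention after their values were seen. The list medians were 0.31 on AT-I and 0.16 on AT-II.

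**Figure D3:**
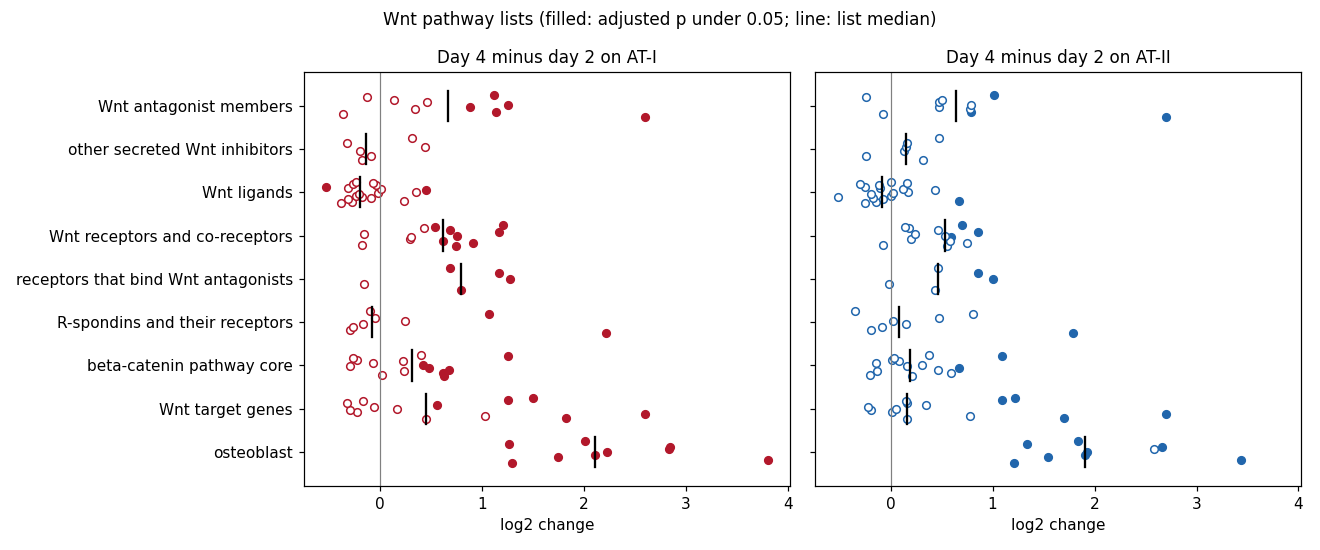
Log2 change from day 4 minus day 2 (horizontal axis) of each measured gene in the Wnt lists and the osteoblast markers, on AT-I (left) and AT-II (right). Filled points passed at an adjusted p under 0.05 and the line is the list median, which for the osteoblast markers is 2.11 on AT-I and 1.91 on AT-II.

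Several markers of bone-forming and stromal cells also rose from day 2 to day 4. Of 9 osteoblast markers, 9 rose on AT-I and 8 on AT-II. Their mean level was 10.41 to 10.87 in AT-I day 4 samples and 7.52 to 8.78 in AT-I day 2 samples, and 10.33 to 10.93 in AT-II day 4 samples and 7.92 to 9.11 in AT-II day 2 samples. Of 8 mesenchymal stromal and fibroblast markers, 5 rose on AT-I and 2 on AT-II, and their mean level was 10.40 to 10.62 in AT-I day 4 samples and 8.39 to 9.61 in AT-I day 2 samples, and 10.38 to 10.62 in AT-II day 4 samples and 9.19 to 9.99 in AT-II day 2 samples. Of 10 chondrocyte markers, 3 rose on AT-I and 4 on AT-II, led by the collagen genes Col11a2 and Col11a1, which osteoblasts also express. The others that rose were Acan, by 1.27 ± 0.31 on AT-I and 1.29 ± 0.33 on AT-II, and Sox9, by 0.73 ± 0.19 on AT-II. At AT-I day 2 Col11a2 averaged 6.07, Col11a1 7.17 and Acan 6.11, below the gauge average of 7.21. At AT-II day 2 Col11a2 averaged 6.11 and Acan 6.01, below the gauge average of 6.27. Of 6 osteoclast markers, 2 rose on AT-I and 0 on AT-II, with a median change of 0.60 on AT-I and 0.56 on AT-II. Their mean level was 8.31 to 9.17 in AT-I day 4 samples and 7.22 to 8.11 in AT-I day 2 samples, and 8.39 to 8.82 in AT-II day 4 samples and 7.34 to 8.15 in AT-II day 2 samples. On AT-I 1 of 8 macrophage, 1 of 9 neutrophil and 1 of 8 skeletal muscle markers fell, and 0 of these passed on AT-II. Of 6 endothelial, 6 erythroid and 5 B lineage markers, 0 passed on either surface. The part of these cell types in the changes of the antagonists was not tested.

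**Figure D4:**
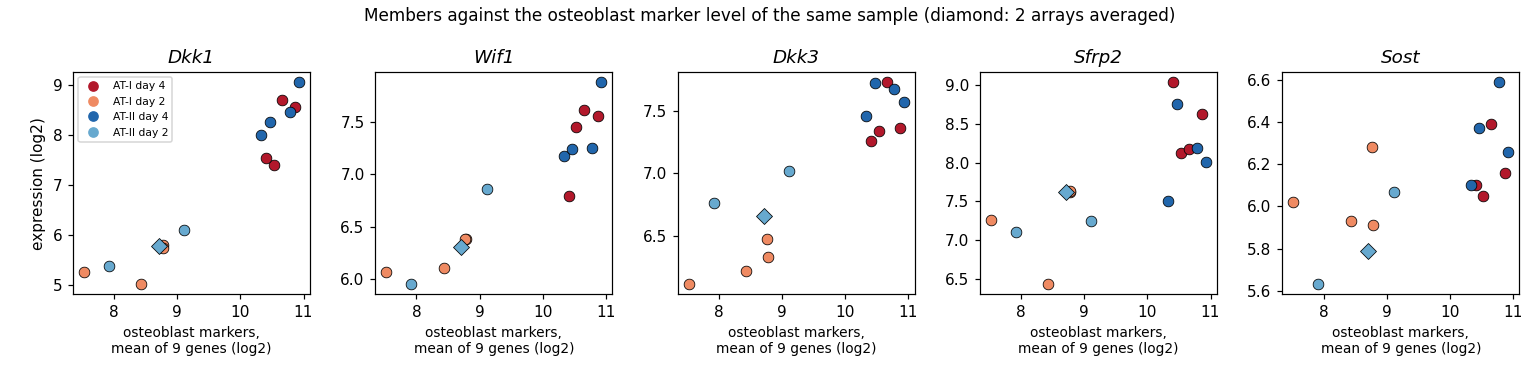
Expression (log2, vertical axis) of 5 members against the mean of 9 osteoblast markers (log2, horizontal axis) in the same sample, for the 15 samples. The day 4 samples lie at 10.33 or above on the horizontal axis and the day 2 samples at 9.11 or below; Dkk1 separates with them and Sost spans 5.63 to 6.59 in all.

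The genes most like each called member were taken by Pearson's r over the 15 samples, as a description of samples that share arrays and that fall apart by day. For Dkk1 these were Rftn2 (r = 0.989), Slc8a3 and Ptprz1 (r = 0.985 each), and within the 8 day 4 samples r was 0.93, 0.90 and 0.87. For Wif1 they were Tbx2 (r = 0.975), Mmp16 (r = 0.974) and Lmo7 (r = 0.971), with 0.86, 0.90 and 0.90 within day 4. For Dkk3 they were Acss3 (r = 0.964), Ddr2 (r = 0.962) and Amotl1 (r = 0.961), with 0.90, 0.22 and 0.50 within day 4. For Sfrp1 they were Eef2 (r = 0.956), Klhl17 (r = 0.947) and Ptov1 (r = 0.945), with 0.72, 0.70 and 0.45 within day 4. For Sfrp2 no gene came as near, and the first were Pms1 (r = 0.858), Nr4a2 (r = 0.836) and Tob1 (r = 0.826), with 0.60, 0.40 and 0.21 within day 4. Within the 7 day 2 samples, genes in the same order, r was 0.81, 0.94 and 0.75 for Dkk1 and 0.92, 0.94 and 0.85 for Wif1. It was 0.74, 0.93 and 0.89 for Dkk3, 0.99, 0.98 and 0.98 for Sfrp1, and 0.79, 0.67 and 0.85 for Sfrp2.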

How the data were processed

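The 16 arrays, Affymetrix Rat Gene 1.1 ST, measured RNA of implant-adherent cells, per the labels. The authors made the deposited log2 values with RMA (Affymetrix Expression Console), as the submitters' processing notes state. That the logarithm has base 2 follows from RMA and is not written in the file. Software versions and filters: not given in the sources used here. The values span 1.82 to 14.01.

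Gene names came from the platform annotation. Of 29214 rows, 18644 named 1 gene, and 18460 of these had an identifier in the GRCr8 table. The 962 with several genes and the 9608 with none were not used, and the brightest row stood for a gene. Groups came from sample titles. limma 3.58.1 in R 4.3.3 (lmFit, eBayes, group means, two-sided) was fitted to all 17245 genes and 15 samples, with Benjamini-Hochberg adjustment (11 residual and 4.44 prior degrees of freedom). The fit was tested on simulated data. Python 3.11.15 made the figures. The members, lists, tests and alternatives were chosen with earlier results of these data known, including the averaging of AT-II day 2 replicates 2 and 3. All 10 members are named, with up to 3 genes per Wnt list (smallest p) and the 3 genes most like each called member. Other genes are named for their role. There were 28 alternative settings, 15 of which left out 1 sample. The number of arrays limits the precision. The fold changes with day 2 samples set at the olfactory gauge were added after the values were seen.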

Additional observations from a re-analysis of the deposited data

Results flagged for a closer look

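Each member's groups of 4 samples were searched for a sample far from its group, 30 groups in all, and 2 such samples were found, where chance gives about 1 in 20 groups. For Wif1 it was replicate 1 of AT-II day 4, with a value of 7.88 while the remaining 3 lay between 7.17 and 7.25. For Sostdc1 it was replicate 2 of AT-I day 2, with a value of 5.21 while the remaining 3 lay between 5.53 and 5.57.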

How the results depend on the processing

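Over 28 other settings, Dkk1 and Dkk3 passed on both surfaces and Wif1 and Sfrp2 on AT-I in every one, with Dkk1 between 2.37 and 2.81 on AT-I and between 2.50 and 2.88 on AT-II. The calls that changed were those of Sfrp1 on AT-I (ended in 18 settings), Wif1 on AT-II (ended in 7), Frzb and Sost on AT-II (gained in 6 and 5), and Dkk3 and Sfrp1 between the surfaces at day 2 (gained in 4 and 2), and 0 reversed. On AT-II the members called were 5 with all 16 arrays counted, with array weights and with a replicate block on all 16 arrays. Between the surfaces at day 2 they were 1 with all 16 arrays counted or with array weights, and 2 with a replicate block on all 16 arrays or with the averaged sample numbered 3. Leaving out 1 sample gave 4 to 5 on AT-I, 2 to 4 on AT-II and 0 in the other comparisons.

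The labels do not say that the numbers pair samples. Deviations of same-numbered samples correlated at -0.34 to 0.64, above 0.1 in 6 of 8 pairs, and 4 of 8 AT-I samples correlated best with their own number, so pairing is unsettled and the replicate block is reported here only. With the averaged sample numbered 3 it gave -0.88 for Sfrp1 (limma adjusted p = 0.0443) and -0.55 for Dkk3 (limma adjusted p = 0.0454) at day 2. With the averaged sample numbered 2, 0 members were called between the surfaces at day 2. Over all genes, AT-I gave 1983 calls, 1060 with its groups alone, 1314 with spread as a covariate and 1158 without AT-I day 4 replicate 4. AT-II gave 575, 1228 with array weights, 919 (5.33%) with the block on all 16 arrays, 334 without both day 2 samples numbered 1 and 223 to 694 without 1 sample. The surfaces at day 2 gave 0, 2193 with all 16 arrays, 3713 with array weights, 1254 (7.27%) and 3823 (22.2%) with the block and the averaged sample numbered 3 or all 16 arrays, 711 without AT-I day 2 replicate 2 and 1 with quantile normalization repeated. Centring each array moved the median of all genes to -0.21 on AT-I and -0.16 on AT-II, and the share called higher to 39.7%, against 76.9%, and to 72.2%, against 93.9%; Dkk1 was 2.44 and 2.60 there. The causes were not tested.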
